A study of Caenorhabditis elegans with 4 samples.

Results

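Chromosome II of the nematode Caenorhabditis elegans held 498 of the 3728 DNA regions at which the tagged protein EGL-27::GFP was enriched in fed L1 larvae. The regions were taken from the authors' list by chromosome alone, with no filter on width, spacing or score. They lay from base 18880 to base 15266639 of the chromosome, in the coordinates of the genome build WormBase WS180, and 11 of them sat close together at II:6825715-6853622. That stretch is called the dense stretch here, and each measure was taken on all 498 regions and on the 487 outside it. Its bounds are the first and last base of these 11 regions. Both the stretch and the chromosome were chosen with earlier results of these data known.

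The data came from 2 ChIP libraries, made with a goat antibody against GFP, and 2 input libraries of the same chromatin without the antibody step. All 4 libraries were from hermaphrodites of 1 transgenic strain, OP177, which carries the mutation unc119(ed3) and the transgene wgIs177. In that transgene egl-27 is joined to TY1, EGFP and FLAG tags, and a copy of unc119 is included. The input animals thus carried the transgene as well. The worms were fed E. coli HB101, kept at 20 °C, harvested at the first larval stage and crosslinked with 2% formaldehyde. The fusion gene was brought in by particle bombardment of unc-119 mutants, together with a rescuing unc-119 copy, and its copy number is not stated in the sources used here. Chromatin was from whole larvae, so each region is an average over all their cells.

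EGL-27 belongs to the MTA family, whose members are subunits of nucleosome remodelling and histone deacetylase complexes, and has a GATA-type zinc finger. In the worm it is known for roles in cell polarity, cell migration and Hox gene expression during development, and in stress responses of adults. The chromosomes of this species have no single centromere. On the autosomes, essential and widely expressed genes are commonest in the middle of the chromosome, while the outer arms recombine more and hold more repeats. The gene egl-27 itself lies on chromosome II, and unc-119 lies on III.

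The list joins the 4 libraries and gives no value for any one of them, so no spread between replicates can be stated and no comparison below carries a test over samples. Regions that neighbour each other are not independent, and tests over regions were not made. The intervals in brackets are exact 95% intervals that cover counting error only and are too narrow for clustered regions. Those of the tag ratios of single regions and clusters, further below, take scaled input tags as plain counts. The true counting error of these ratios is not known. Each value for II is set beside those of the other 5 chromosomes, and where it falls outside their range this is a description of 6 chromosomes, not a called difference. No region was assigned to a gene, since an annotation in WS180 was not used here, and no sequence is shown because a genome of that build was not used.

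Chromosome II had the fewest regions of the 6 chromosomes and the fewest per Mb. Its 498 regions over 15.3 Mb came to 32.6 per Mb, against 38.1 per Mb on the other 5 chromosomes together. Among those 5, V was closest, with 32.9 per Mb, and III was highest, with 48.2. Without the dense stretch II had 31.9 per Mb, a value that setting regions aside on II alone could only lower. Per 100 protein-coding genes there were 14.5 regions on II, against 13.8 on V and 26.7 on X, the lowest and highest of the others. On that scale II was therefore second lowest.

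The density of II was lowest at its left end. The first 30% of the chromosome held 85 regions, or 17.1% of those on II (13.9 to 20.7%), against 27.4% on the other 5 chromosomes together (25.8 to 28.9%). The other chromosomes ranged from 23.5% on III to 30.8% on IV, so II lay below all 5. In density, the first 30% of II had 18.6 regions per Mb, against 30.7 to 37.8 per Mb in the same part of the others. The 12 outer parts of 30%, 2 per chromosome, can be ranked by density, and the left part of II came lowest. The right end of V followed, with 24.8 per Mb. The right end of II was unlike its left end. It held 165 regions, 36.0 per Mb, and ranked eighth from the bottom of the 12. Beyond the first 30%, II had 38.6 regions per Mb, against 39.5 per Mb on the others together, which ranged from 33.9 on V to 52.7 on III. The part was set at 30% after the counts had been seen. With the first 40% in its place, the share of II over that of the others was 0.825, against 0.624 with 30%.

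**Figure D1:**
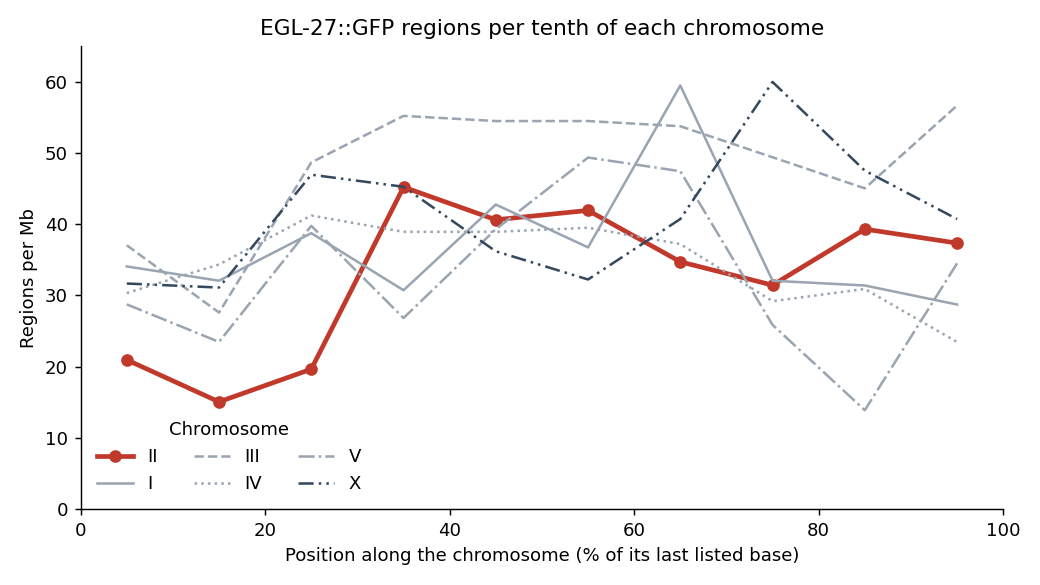
Regions per Mb in each of 10 equal bins of each chromosome, by position as a percentage of the last listed base, with II in red, X in dark blue and the other autosomes in grey. The first 3 bins of II lie at 15.1 to 21.0 regions per Mb, and the fourth at 45.2.

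In 10 equal bins, each 10% of the chromosome, II had 32, 23 and 30 regions and then 69 in the fourth bin, 62 in the fifth and 64 in the sixth. The remaining 4 bins held 53, 48, 60 and 57 regions. In each of the first 3 bins the share of regions on II was below that of every other chromosome. In bin 3 it was 6.02%, against 10.1 to 12.1% on the others. In bin 4 it was 13.9%, above their range of 8.15 to 11.4%. Of the 60 bins of all 6 chromosomes, bin 9 of V was the least dense, with 13.9 regions per Mb. Bins 2, 3 and 1 of II came next, at 15.1, 19.7 and 21.0 per Mb.

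In steps of 1 Mb along II the counts show where the change falls. The first 4 Mb held 21, 14, 20 and 16 regions. The fifth Mb held 31, and the sixth 50, the highest count of any Mb on the chromosome. The seventh Mb held 47 regions, of which 36 lay outside the dense stretch, and the other whole Mb steps to the right held 25 to 42. Covered sequence followed the same course, with 2581 to 4129 bp in each of the first 4 Mb and 15100 bp in the sixth. The seventh had 30424 bp, and 8593 bp without the dense stretch.

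The sparse left part also had a larger share of very narrow regions than the rest of II. Of the 85, 23 were narrower than 50 bp, or 27.1% (18.0 to 37.8%), against 50 of the 413 further right, or 12.1% (9.12 to 15.6%). The share in the first 30% was 10.8 to 21.9% on the other chromosomes. II was above this range, which its interval reaches. Each of the other autosomes also had a higher share in its first 30% than in its rest, while X did not. The median width was 198 bp in the left part (147 to 217) and 221 bp in the rest of II (202 to 245), and these intervals overlap. The widest region of the left part was 564 bp wide, at II:4376505-4377068, with q = 1.99e-11. By contrast, the region with the smallest q-value in that part, II:2973901-2974225 (q = 2.14e-21), was 325 bp wide and among the 10 strongest of the whole chromosome.

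Spacing was wider in the left part, which was chosen after its low counts had been seen. Wider distances, longer gaps and fewer near neighbours go with fewer regions per Mb, so they are not separate from that low density. Neighbouring midpoints in the first 30% of II were 34541 bp apart in the median (18483 to 50368), against 13114 bp in the rest of II (11498 to 16229). The other 5 chromosomes had medians of 13615 to 17325 bp in their first 30%. The 3 longest stretches of II without a region lay between bases 1502161 and 1790179 (288017 bp), 3209517 and 3439458 (229940 bp), and 3557937 and 3786643 (228705 bp). All 3 were in that part, as were the 5 longest and 8 of the 10 longest. Clusters were fewer there, with 17 of the 85 regions, or 20% (12.1 to 30.1%), having a neighbour across a gap of at most 2 kb. The rest of II had 33.2% (28.6 to 37.9%). Each of the other 5 chromosomes also had a lower share in its first 30% than in its rest. Their shares in the first 30% were 25.8 to 33.3%, a range that the interval of II reaches. The left part had 8 clusters of 2 or 3 regions and none of the 7 clusters of 4 or more. Whether fewer alignable reads or fewer genes go with the low density there was not tested.

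**Figure D2:**
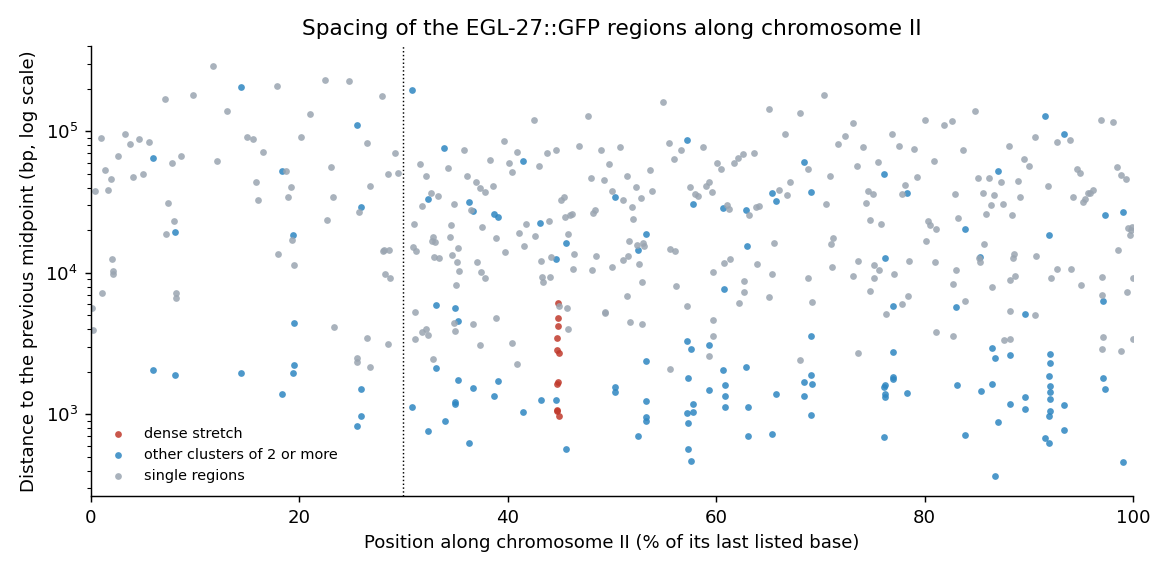
Distance from each region of II to the one before it (midpoints, bp, log scale) against position along the chromosome in percent, with regions of the dense stretch in red, other clustered regions in blue and single regions in grey. The dotted line marks 30%; left of it the median distance is 34541 bp and right of it 13114 bp.

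Over the whole chromosome, the median spacing on II was within the range of the others, while both quartiles were above it. The median distance between neighbouring midpoints was 15026 bp (12760 to 18540), and 16049 bp without the dense stretch, against 13519 bp on the other 5 together (12738 to 14396). Single chromosomes ran from 11353 bp on III to 16497 bp on IV. The upper quartile was 41373 bp on II, above the 29047 to 39931 bp of the others. The lower quartile, 3825 bp, was above their 2708 to 3718 bp as well. Without the first 30% of each chromosome the median distance was 13114 bp on II and 12742 bp on the other 5 together. Neighbours within 2 kb made up 16.5% of the 497 pairs on II (13.3 to 20.1%) and 15.8% outside the dense stretch, against 17.2% on the others together. Within 5 kb the shares were 28.6% on II (24.6 to 32.8%), against 29.2 to 35.7% on the others, so II was lowest on that scale. Within 1 kb it was also lowest, with 5.03% (3.28 to 7.34%), against 5.11 to 7.99%. On both scales the interval of II reaches into the range of the others.

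The width of a typical region on II was like that elsewhere. The median was 216 bp (200 to 235), and 211 bp without the dense stretch (198 to 230), against 219 bp on the other 5 chromosomes together (211 to 228). By chromosome, the lowest median was that of V, 179 bp, and the highest that of X, 248 bp. The quartiles of II were 105 and 352 bp, against 113 and 350 bp on the others together. Regions under 50 bp made up 14.7% of II (11.7 to 18.1%), against 14.4% elsewhere (13.2 to 15.7%), and 6 regions of II were a single base wide.

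Among the measures of width, only the share and the size of the widest regions fell outside the range of the other chromosomes, and most of these regions were in the dense stretch. Regions of 1 kb or more numbered 11 on II, or 2.21% (1.11 to 3.92%), against 1.15% on the other 5 together (0.808 to 1.58%), where X had the highest share at 1.92%. Of the 11, 7 lay in the dense stretch. The 4 others were 0.821% of the 487 regions outside it (0.224 to 2.09%), which is within the range of 0.666 to 1.92% of the other chromosomes. II held 22.9% of all 48 regions of that width in the list, and 9.76% of the 41 left when the dense stretch was set aside. The mean width of II was 289 bp, and 251 bp without the dense stretch, against 261 bp on the others together. In the share of its length that was covered, II had 0.942% with the dense stretch and 0.799% without it, against 0.994% on the others together and 0.719 to 1.23% on single chromosomes.

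**Figure D3:**
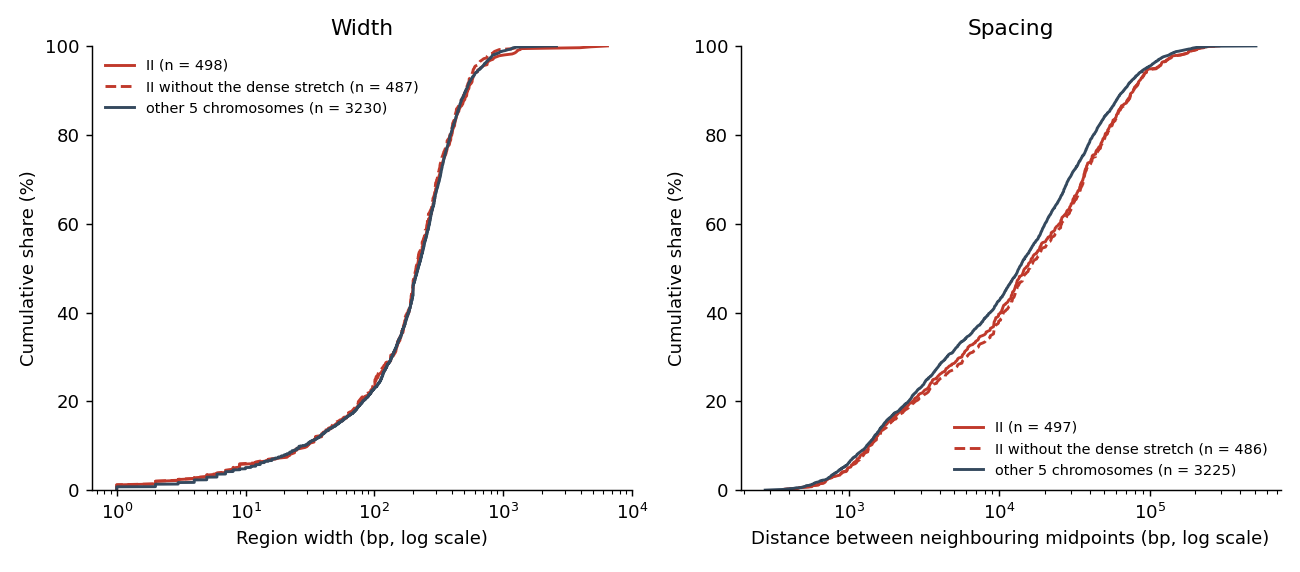
Cumulative share of regions by width (left, bp, log scale) and of neighbouring pairs by distance between midpoints (right, bp, log scale), for II, for II without the dense stretch (dashed) and for the other 5 chromosomes together. The width curves lie on each other, with medians of 216, 211 and 219 bp, and part only at the wide end; the distance curve of II runs to the right of the others, with medians of 15026 and 13519 bp.

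The widest regions outside the dense stretch were 5 regions of 933 to 1367 bp. II:11634839-11636205, at 1367 bp the widest of them, also had the smallest q-value of the chromosome, 1.80e-39. II:6347601-6348889 was 1289 bp wide with q = 1.37e-10, and II:5660975-5662231 was 1257 bp wide with q = 3.95e-13. Both stood alone, with no neighbour within a gap of 2 kb. II:11749057-11750230 was 1174 bp wide with q = 6.23e-20, and II:10548739-10549671 was 933 bp wide with q = 2.14e-10. No region of the first 30% of the chromosome was among them.

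The q-values on II had a higher median than on the other chromosomes, and the share of the strongest regions was lower without the dense stretch than with it. The q-value of PeakSeq, the program that called the regions, is a p-value for more ChIP than input tags, corrected for the number of regions tested, and every listed region was under 0.01. The median q on II was 0.00141 (0.001002 to 0.00189), against 9.96e-04 on the other 5 together, and single chromosomes ran from 9.20e-04 on I to 0.00132 on V. Below 0.001 were 225 regions of II, 45.2% (40.7 to 49.7%), against 49.6% of the whole list. Below 1e-05 were 94, or 18.9% (15.5 to 22.6%), against 20.0% of the whole list, and below 1e-10 were 27, or 5.42% (3.60 to 7.79%), against 5.98%. These last shares lie near the background of the list. Of the 27, 6 were in the dense stretch. Without the stretch, 44.6% of the regions of II were below 0.001, 18.1% below 1e-05 and 4.31% (2.69 to 6.52%) below 1e-10. For 1e-05 this is within the 16.3 to 22.3% of the other chromosomes. For 1e-10 the value is below their 4.49 to 8.78%, a range that its interval reaches and that holds the 5.42% of all of II. The dense stretch was set aside on II only, and no cluster was set aside on the others, so this comparison is uneven.

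The 10 regions of II with the smallest q-values were 325 to 6451 bp wide and spread over the chromosome. After II:11634839-11636205 came 2 regions of the dense stretch, II:6840321-6846771 (q = 1.70e-37) and II:6834993-6839784 (q = 4.89e-32). They were followed by II:14039890-14040722 (q = 7.88e-25), II:10563301-10563675 (q = 8.37e-24) and II:13334889-13335649 (q = 1.24e-23). The other 4 were II:5844395-5845145 (q = 1.79e-22), II:2973901-2974225 (q = 2.14e-21), II:12944373-12945078 (q = 4.93e-21) and II:11749057-11750230 (q = 6.23e-20). Of the 10, 6 belonged to clusters and 4 stood alone. Of the 100 regions of the whole list with the smallest q-values, 13 were on II, which held 13.4% of all regions.

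Clusters are groups of regions joined across gaps of at most 2 kb. II had 59 of them, with 154 regions, or 30.9% of its regions (26.9 to 35.2%), and 344 regions stood alone. Without the dense stretch the share was 29.4% (25.4 to 33.6%), against 32.5% on the other 5 together (30.9 to 34.1%) and 29.7 to 38.9% on single chromosomes. There were 42 pairs, 10 clusters of 3, 4 of 4, and 1 each of 5, 8 and 11 regions. The largest clusters of the other chromosomes held between 4 and 7 regions, so the clusters of 8 and 11 on II were the 2 largest of the list. Regions in clusters of 3 or more made up 14.1% of II, and 12.1% without the dense stretch, against 12.8% on the others together.

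Clustered regions of II were wider and better scored than single ones, with or without the dense stretch. Their median width was 260 bp outside the stretch (218 to 314), against 200 bp for single regions (187 to 217). A q-value under 1e-05 was reached by 27.3% of them (20.2 to 35.3%), against 14.2% of the single regions (10.7 to 18.4%). Of the 50 regions from 500 bp to just under 1 kb, 29 lay in clusters, or 58% (43.2 to 71.8%), whereas 17 of the 73 regions under 50 bp did, or 23.3% (14.2 to 34.6%). The gaps at which a caller joins or parts neighbouring peaks bear on all these values and are not stated in the sources used here. The smallest gap on II was 204 bp.

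The size of each enrichment can be read from the q-values. PeakSeq scores a region with a binomial test of its ChIP tags against its input tags, scaled to the depth of the ChIP, and corrects by rank. Multiplied by its place in the list, every q-value equalled 6924 times a binomial lower-tail probability at a share of 0.5, within a relative tolerance of 1e-08. For 495 of the 498 regions of II only 1 pair of ChIP and input tags gives that tail, and for the other 3 there are 2 pairs. Those 3, all 25 bp or narrower, are left out of what follows. The authors' own tag counts were not used here, so the tags are a reading of their q-values, and a ratio of tags is a ratio among regions that passed the caller, of which small ones were listed only when the ratio was high.

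Read in this way, the median region of II had 41 ChIP tags (38 to 43) and 15 scaled input tags (14 to 16). Their ratio had a median of 2.92 (2.84 to 3.06) on II and 2.95 outside the dense stretch, against 3 on the other 5 together, where X was lowest with 2.84 and V highest with 3.20. Input tags per kb, in regions of at least 200 bp, had a median of 69.1 on II (67.3 to 71.7), against 67.4 on the others together (66.1 to 68.7). II thus lay within the range of the other chromosomes on both. Within II the left part had the higher ratios, with a median of 3.29 in the first 30% (3.04 to 3.56), against 2.88 in the rest (2.78 to 3.00). This was not particular to II. Each of the other autosomes also had a higher median in its first 30% than in its rest, while X did not. The other chromosomes had medians of 2.81 to 3.39 in their first 30%, so II lay within their range. Over all of II the median ratio was 4 in regions under 50 bp, 3 in those from 50 bp to under 200 bp and 2.56 in those from 200 bp to under 500 bp. It was 2.96 in those from 500 bp to under 1 kb, and 2.96 in the 4 regions of 1 kb or more outside the dense stretch, so it did not follow width in 1 direction. The part of width in the higher ratios of the left part was not tested.

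The highest ratio on II belonged to II:2973901-2974225, with 113 ChIP tags against 10 input tags, which is 11.3-fold (5.92 to 24.2). II:10563301-10563675, a lone region of 375 bp, had 134 ChIP against 14 input tags, or 9.57-fold (5.51 to 18.0). Both are narrower than the other 8 of the 10 best-scored regions. II:11634839-11636205, first by q-value, had 339 ChIP against 73 input tags, or 4.64-fold (3.60 to 6.07). The intervals of the first and the last of these 3 regions overlap slightly.

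The dense stretch spanned 27908 bp, or 0.183% of the chromosome, and its 11 regions covered 21831 bp of it, or 78.2%. It held 2.21% of the regions of II and 15.2% of all covered sequence on II. Its 3 widest regions were II:6840321-6846771 (6451 bp), II:6834993-6839784 (4792 bp) and II:6830611-6834557 (3947 bp), which were also the 3 widest of the whole list. Gaps between its regions were 244 to 1914 bp, with a median of 414 bp. On its left the nearest region, II:6822256-6822663, lay 3051 bp away, and on its right II:6858877-6859067 lay 5254 bp away. The smallest regions of the stretch were II:6828603-6828722 (120 bp, q = 0.00173) and II:6851943-6852334 (q = 0.00372).

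Input was high in the dense stretch and enrichment low. Together its regions held 4364 ChIP tags and 2407 input tags, a ratio of 1.81 (1.72 to 1.91). This was 14.97% of the ChIP tags and 21.9% of the input tags read from the q-values of 495 listed regions of II. These are not shares of all sequencing reads on the chromosome. By region the ratio was lowest at II:6848804-6850028, where 226 ChIP and 168 input tags gave 1.35 (1.10 to 1.65), with q = 0.00472. It was 1.79 (1.64 to 1.95) in the widest region, with 1395 ChIP and 781 input tags, 1.81 (1.64 to 2.00) in the second, with 1138 and 627, and 1.65 (1.45 to 1.89) in II:6830611-6834557, with 602 and 364. Ratios under 2 were found in 7 of the 11 regions of the stretch, against 15 of the 484 regions of II outside it, or 3.10%. Regions with few tags were listed only when their ratio was high, so the 3.10% is set in part by the caller's threshold. The 4 regions of 1 kb or more elsewhere on II had ratios of 2.28 to 4.64.

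Input tags per kb were uneven along the dense stretch. They were 109.6 to 137.1 from II:6834993-6839784 to II:6848804-6850028, and 62.2 to 107.1 in its other regions. Over the whole stretch there were 110.3 per kb, against 53.4 to 71.4 per kb in the 4 wide regions elsewhere on II. Of the 263 other regions of II with at least 200 bp, 4 were above that level. From left to right the first 3 regions had 79.5, 67.8 and 75 per kb, and II:6829088-6830366 and II:6830611-6834557 had 89.1 and 92.2. The 2 widest followed with 130.8 and 121.1, then II:6847052-6848411 with 109.6 and II:6848804-6850028 with 137.1. The last 2 regions, II:6851943-6852334 and II:6852594-6853622, had 107.1 and 62.2. Of the regions just outside, II:6822256-6822663 had 102.9 per kb and II:6858877-6859067 had 89.0. The transgene carries a copy of egl-27, a gene of this chromosome, and both ChIP and input libraries came from animals with the transgene. Whether the stretch includes that gene, and whether copy number goes with its input, was not tested.

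The cluster of 8 regions, II:14036757-14046603, differed from the dense stretch in these measures. It spanned 9847 bp near the right end of the chromosome, of which its regions covered 2447 bp, or 24.9%, and their median width was 177 bp. Together they held 519 ChIP against 144 input tags, for a ratio of 3.60 (2.99 to 4.37), and 58.8 input tags per kb. Its strongest region was II:14039890-14040722, 833 bp wide, with 215 ChIP and 47 input tags, a ratio of 4.57 (3.32 to 6.41). The next was II:14043887-14044563 (677 bp, q = 6.40e-11), with a ratio of 3.70 (2.45 to 5.74). The remaining 6 were 8 to 259 bp wide, with q-values of 8.23e-05 to 0.00896.

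The cluster of 5 regions, II:8126132-8132064, spanned 5933 bp in the middle of the chromosome. It had 2 regions with small q-values, II:8131291-8132064 (774 bp, q = 1.01e-07) and II:8128233-8128924 (692 bp, q = 2.19e-06), with ratios of 2.71 (1.88 to 3.97) and 2.40 (1.68 to 3.48). Its other members were 581, 159 and 1 bp wide. Its 4 regions with a single pair of tags together had a ratio of 2.43 (1.98 to 2.99) and 61.7 input tags per kb. The region with the smallest q-value of II lay in a cluster of 4, II:11632635-11637355, which covered 60.7% of its span of 4721 bp and had a ratio of 3.54 (2.99 to 4.20). Input per kb was thus lower in these 3 clusters than in the dense stretch, at 58.8 to 61.7.

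**Figure D4:**
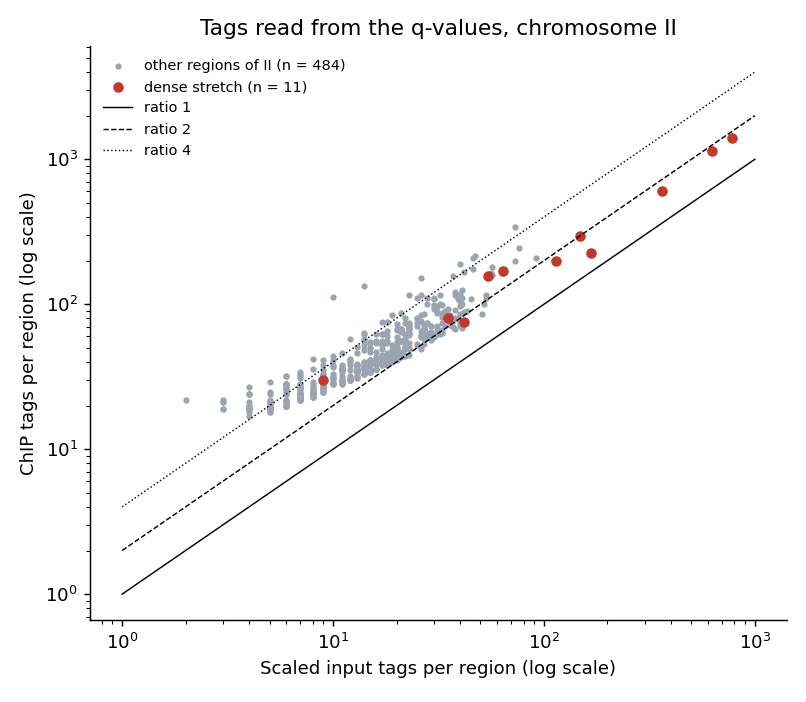
ChIP tags against scaled input tags of each region of II (both log scale), as read from the q-values, with the 11 regions of the dense stretch in red, the other 484 in grey, and lines for ratios of 1, 2 and 4. The widest regions of the stretch lie just under the line for a ratio of 2, and most other regions lie between the lines for 2 and 4.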

How the data were processed

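The deposited file is 1 list of regions for 2 ChIP and 2 input libraries together. Regions were called with PeakSeq on WormBase WS180, per the file headers. The list gives the first and last base of each region, counted from 1, and the authors' q-value, a p-value corrected for multiple testing. Aligner, read depth, input scaling and caller settings are not stated in the sources used here, and the depth per library is unknown. Chromosome length was the last listed base. Width is last minus first base plus 1, distance is between midpoints, and clusters join regions over gaps of up to 2 kb. Intervals are exact binomial (Clopper-Pearson) for shares and tag ratios, and from order statistics for medians. For tag ratios the scaled input tags were treated as plain counts, and since the scaling is unknown these intervals are approximate. Tag pairs were matched for sums of 8 to 6000 tags. The number 6924 was found by trying each whole number from 3728 to 20000 on the 101 levels shared by at least 8 regions, for tag sums no higher than 200. It matched 100% of them, and no other number matched more than 0.990%. The measures and the tag reading were tested on simulated data. A gene table of another build, WBcel235, gave only the chromosome of a named gene and each chromosome's number of protein-coding genes, and none of its coordinates was used. The regions named follow a fixed rule: the 10 smallest q-values, the 5 widest outside the dense stretch, that stretch with its neighbours, clusters of 5 or more, and the 3 longest gaps. The widest and strongest region of the left part and the cluster of 4 were added after their values were seen. The regions, measures and lists were all chosen with earlier results of these data known. Python 3.11.15, numpy 2.4.6, pandas 2.3.3, scipy 1.17.1 and matplotlib 3.10.9 were used.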

Additional observations from a re-analysis of the deposited data

How the results depend on the processing

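Each measure was expressed as the value of II over that of the comparison chromosomes and recomputed under 58 alternatives, 50 planned and 8 added after the data were seen. Of these, 48 stayed within the 95% counting interval of the main ratio and 10 fell outside it. For medians and for shares of regions or pairs, that interval treats the value of the other chromosomes as exact. For the covered share it is the interval of the region count, which leaves out the spread of widths. With the better-scored 50% of the list, the ratio of regions per Mb was 0.755, against 0.856 with all regions, and that of the median distance 1.47, against 1.11. Per protein-coding gene the density ratio was 0.739, and without the first 30% of each chromosome it was 0.978. Without the dense stretch the ratio of the share of regions of 1 kb or more was 0.717, against 1.93, and that of the covered share 0.804, against 0.948. In the central 33.3% of the chromosome the ratio was 1.14, against 1.01 in the central 50%. For clusters of 3 or more it was 1.10, against 0.952 for 2 or more. Against the 4 other autosomes alone the tag ratio was 0.944, against 0.974. For the first 40% in place of the first 30% the ratio was 0.825, against 0.624. The changes of part, length unit and cluster size measure another quantity by construction. Setting the dense stretch aside took away 7 of the 11 regions of 1 kb or more on II and 15.2% of its covered sequence. For the other moves the cause was not tested. In 8 alternatives the ratio crossed 1: 3 for the central 50%, 2 for the median width, and 1 each for regions of 1 kb or more, covered share and clusters. No paired analysis was possible because no library has values of its own in the list, and for the same reason no replicate could be left out.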
